A study of Homo sapiens with 24 samples.

Results

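The genes described here are 42 named NRF2 target and antioxidant enzyme genes, covering glutathione, thioredoxin and peroxide metabolism, quinone and carbonyl reduction, conjugation and export, with iron and pentose phosphate genes left out of the list. They were found by gene name in a table of 60504 rows of TPM values (an expression level corrected for transcript length and scaled to the same total in every library). The 42 names matched 43 rows, because AKR1C3 has 2 rows (ENSG00000196139, and ENSG00000282883, written here as the second row). A mean of 1 TPM or more in at least 1 line was reached by 42 rows from 41 names, and GPX2 was the name that did not reach it, with at most 0.36 TPM in any library. RNA was sequenced in human cancer cell lines 48 hours after transfection with siGCDH, small interfering RNA against GCDH, or with siControl, a control siRNA. Glutaryl-CoA dehydrogenase, the product of GCDH, works in mitochondria on the route by which lysine and tryptophan are degraded. A375, labelled melanoma, was measured in 2 batches, and SK-Hep1, labelled liver, and SKBR3, labelled breast, in 1 each. Each line and batch had 3 siGCDH and 3 siControl libraries, which gave 24 libraries in 8 groups, and no genotype, drug or other agent is given in the labels. Each line is 1 established culture seeded in triplicate wells, so p-values measure the spread between wells, which may be technical. A375 batch 1 was made with a kit that reads the 3′ end of transcripts, and A375 batch 2, SK-Hep1 and SKBR3 with a full-length poly(A) kit, so that levels are not compared across the kits.

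NRF2, encoded by NFE2L2, is a transcription factor that KEAP1 and CUL3 mark for breakdown in unstressed cells. When KEAP1 is modified by oxidants or electrophiles, NRF2 builds up, pairs with small MAF proteins and binds antioxidant response elements (AREs) near genes of glutathione and thioredoxin metabolism and detoxification. Several cancers carry an active NRF2 pathway, and some of the genes described here, such as SOD2, GPX8 and most peroxiredoxins, also answer to other factors or are expressed constitutively.

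The ARE core, TGACNNNGC, was searched on both strands in RefSeq promoters (GRCh38.p14), from 250 bases before to 50 after each start. Of the listed genes, 32 had a promoter in the table, and 10 of them (31.2%) held the core, against 16.1% of all 27305 genes with a promoter. The AP-1 site TGANTCA, which can overlap an ARE, was held by 4 of the 32 (12.5%) and by 9.37% of all genes. The windows below are shown for TXNRD1, ME1 and PIR, whose falls are described later, and for GCLM and GSTP1, known NRF2 targets whose changes were smaller. AKR1B1, which also fell, and NQO1, which fell in A375, did not hold the core in their windows. SLC7A11 and PRDX1, which fell too, had no promoter in the table and were not searched. The windows were thus chosen for holding the core and do not stand for all genes that fell. Each window shown is given 5′ to 3′ along the gene's strand, with the match in capitals. The TXNRD1 window is chr12:104215650-104215718, plus strand, and its core begins 99 bases before the start. The ME1 window is chr6:83431150-83431218, minus strand, where the core begins 137 bases before the start and overlaps an AP-1 match. The PIR window is chrX:15493284-15493337, minus strand, inside the first transcribed bases, and it too overlaps an AP-1 match. The GCLM window is chr1:93909426-93909494, minus strand, with the core on the opposite strand. GSTP1 lies at chr11:67583716-67583784, plus strand, where the match also overlaps an AP-1 match.
TXNRD1: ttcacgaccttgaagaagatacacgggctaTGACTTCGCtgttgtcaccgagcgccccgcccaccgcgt
ME1: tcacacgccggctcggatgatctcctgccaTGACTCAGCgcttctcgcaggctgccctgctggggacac
PIR: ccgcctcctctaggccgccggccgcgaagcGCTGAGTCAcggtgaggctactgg
GCLM: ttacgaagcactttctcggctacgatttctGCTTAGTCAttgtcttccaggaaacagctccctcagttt
GSTP1: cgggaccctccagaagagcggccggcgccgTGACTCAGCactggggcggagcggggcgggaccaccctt
A match is a run of letters and was not measured as a binding site. With siGCDH in A375 batch 2, of 9 tested genes whose window held the core 6 were lower, 2 higher and 1 not called, and of 22 without it 7 were lower, 4 higher and 11 not called, against 15.7% of all tested genes lower and 17.9% higher. In A375 batch 1, 5 of 8 with the core and 4 of 22 without it were lower and 0 higher, against 6.73% of all tested genes lower. In SK-Hep1 the 9 genes with the core split into 3 higher, 2 lower and 4 not called, near the shares of all tested genes (37.3% higher and 18.2% lower). In SKBR3 they split into 4 higher, 3 lower and 2 not called, against 47.3% and 14.7% of all tested genes.

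A second sequence is shown because an earlier analysis of these data named it among letters shared by transcripts that were lower with siGCDH. The 7-mer ACTGAGA stood in the annotated 3′ UTR (GENCODE 29, GRCh38, sense strand) of 7 of 42 rows (16.7%), against 14% of 19572 genes with an annotated 3′ UTR. Those of 3 genes described below are given with the 7-mer in capitals. The SLC7A11 site is chr4:138171601-138171625, minus strand, the PRDX1 site chr1:45511042-45511066, minus strand and the SOD2 site chr6:159681447-159681471, minus strand.
SLC7A11: aaattgaagACTGAGAtttttctgt
PRDX1: taaacttgaACTGAGAccttgatga
SOD2: caggaagaaACTGAGAgcaaagaat
The other 4 were ABCC1, ABCC3, PRDX3 and SRXN1. TXNRD1, AKR1B1, ME1 and PIR did not hold it.

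The siGCDH and siControl libraries of each set did not overlap in GCDH, which with siGCDH was at 17.8% of siControl in A375 batch 2 and 20.8% in batch 1, at 29.3% in SK-Hep1, and in SKBR3 at 26.4% (exact two-sided permutation p = 0.1 each, the smallest that 3 against 3 libraries allow). In batch 1 GCDH was low and its change did not pass in the fit across genes (limma adjusted p = 0.118). The libraries differed in other ways too. Rows from a ribosomal RNA region of chromosome 21 took 31.2 to 34.4% of all TPM in A375 batch 1 with siGCDH and 15.9 to 19.5% with siControl, against under 0.1% elsewhere. Libraries labelled SKBR3 had 17112 to 17251 genes at 1 TPM or more with siGCDH and 15140 to 15181 with siControl, and mitochondrially encoded transcripts held 4.79 to 5.0% and 1.99 to 2.12% of TPM. Melanocyte genes summed to 568 to 625 TPM in A375 batch 2 siGCDH libraries and 565 to 594 TPM in its siControl libraries, and in batch 1 to 136.8 to 168.5 TPM with siGCDH and 197.8 to 198.3 TPM with siControl. Within batch 2, most of the sum was SOX10, which averaged 530 TPM with siGCDH and 457 TPM with siControl. S100B averaged 50.8 TPM with siGCDH and 114 TPM with siControl, and MITF averaged 22.1 TPM with siGCDH and 11.6 TPM with siControl. PMEL, MLANA, DCT and TYRP1 averaged under 1 TPM in both groups of batch 2, and TYR was at 0 with siControl. The label SKBR3 was not matched by its defining markers, since 8 breast epithelial and HER2 genes summed to 88.2 to 98.6 TPM with siGCDH and 56.6 to 60.6 TPM with siControl. In SK-Hep1 the same genes, with KRT8 and KRT18 among the highest, summed to 3408 to 3542 TPM with siGCDH and 6305 to 6581 TPM with siControl. ERBB2, for whose amplification SKBR3 is known, averaged 25.5 TPM with siControl, below SK-Hep1 at 46.4 TPM. In SK-Hep1 hepatocyte genes summed to 36.1 to 37.6 TPM with siGCDH and 8.81 to 11.6 TPM with siControl, with ALB, APOB and HNF4A at 0 with siControl. Most of that sum was SERPINA1 alone, which averaged 34.9 TPM with siGCDH and 9.59 TPM with siControl. The 5 endothelial genes summed to no more than 0.19 TPM in SK-Hep1. Below, SK-Hep1 and SKBR3 mean the libraries so labelled, and the part of these differences in the results was not tested.

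In A375, more of the genes fell than rose with siGCDH, while in SK-Hep1 and SKBR3 rises and falls were about equal in number. Scaling libraries to equal medians changed the split there. No share of all genes is beside those scaled counts, so no lean of the members is read from them. A gene was called when its limma adjusted p, over all genes of a mean of 1 TPM or more in the 6 libraries, was under 0.05. Of 42 rows tested in A375 batch 2, 21 were lower and 6 higher, against 15.7% of all 15185 tested genes lower and 17.9% higher. In A375 batch 1, 12 of 38 were lower and 0 higher, against 6.73% and 1.18% of all tested genes. In SK-Hep1, 11 of 36 were lower and 13 higher, against 18.2% and 37.3% of all tested genes. In SKBR3, 13 of 35 were lower and 13 higher, against 14.7% and 47.3%. Those higher include ABCC2, which reached the filter there only through its siGCDH libraries. In either direction, 27 of 42 were called in A375 batch 2 against 33.6% of all tested genes, 12 of 38 in batch 1 against 7.91%, 24 of 36 in SK-Hep1 against 55.5%, and 26 of 35 in SKBR3 against 62.1%. Without regard to a test, siGCDH and siControl libraries did not overlap, with siGCDH lower, for 23 rows in A375 batch 2 (22.8% of all tested genes), 22 in batch 1 (23.5%), 15 in SKBR3 (16.8%) and 13 in SK-Hep1 (21%). With siGCDH higher they did not overlap for 8 rows in A375 batch 2 (25.6% of all tested genes), 0 in batch 1 (7.34%), 15 in SKBR3 (51.3%) and 15 in SK-Hep1 (42.1%). The shares that were lower, 50% of members in A375 batch 2 and 31.6% in batch 1, and 30.6% (SK-Hep1) and 37.1% (SKBR3), all stood above the share of all tested genes in the same fit. The shares that were higher were near that of all genes in A375 batch 2 (14.3%), batch 1 (0) and SK-Hep1 (36.1%). In SKBR3 the share that was higher was 37.1%, below the 47.3% of all tested genes. In bulk RNA, fewer cells of a type and less RNA per cell cannot be told apart.

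**Figure D1:**
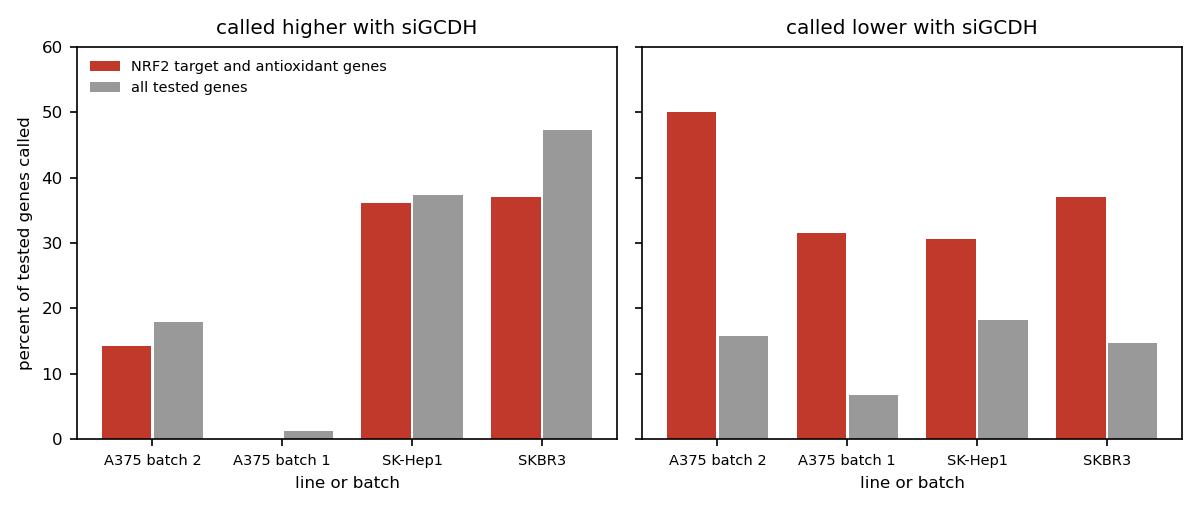
Percent of tested genes called higher (left) and lower (right) with siGCDH, by line or batch, for the NRF2 target and antioxidant genes (red bars) and all tested genes (grey bars). In every set the red bar for lower exceeds the grey one (50% against 15.7% in A375 batch 2), and for higher no red bar exceeds its grey bar (0 against 1.18% in A375 batch 1, 36.1% against 37.3% in SK-Hep1).

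The median log2 fold change of the members was -0.276 in A375 batch 2 (all tested genes 0.0238), -0.543 in batch 1 (all -0.204), 0.103 in SK-Hep1 (all 0.183) and 0.0187 in SKBR3 (all 0.293). Because the median gene itself moved by over 0.1 in A375 batch 1, SK-Hep1 and SKBR3, values there are best read relative to those medians. With each library scaled to equal medians, the split of lower against higher members was 21 to 5 in A375 batch 2 and 4 to 0 in batch 1. It was 14 to 8 for SK-Hep1 and 19 to 8 for SKBR3. The shares of all tested genes within a line are for values before this scaling. The median-scaled counts within a line therefore have no background beside them, and no lean of the members is read from them. The summed TPM of all members fell short of siControl most in batch 1, where it was 2768 to 2890 TPM with siGCDH and 4615 to 4883 TPM with siControl, beside the larger share of the chromosome 21 rows there. The sum in A375 batch 2 was 6717 to 6906 TPM with siGCDH and 7877 to 8033 TPM with siControl. Calls in batch 1 were fragile. Of 12, only those of PRDX1 and PRDX5 were kept when each library was left out in turn, and only that of PRDX1 under every alternative processing. The count there was 3 to 6 without any 1 library, and the 6 higher members of A375 batch 2 were 2 without siControl replicate 2 and 3 without siControl replicate 3 or siGCDH replicate 1.

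**Figure D2:**
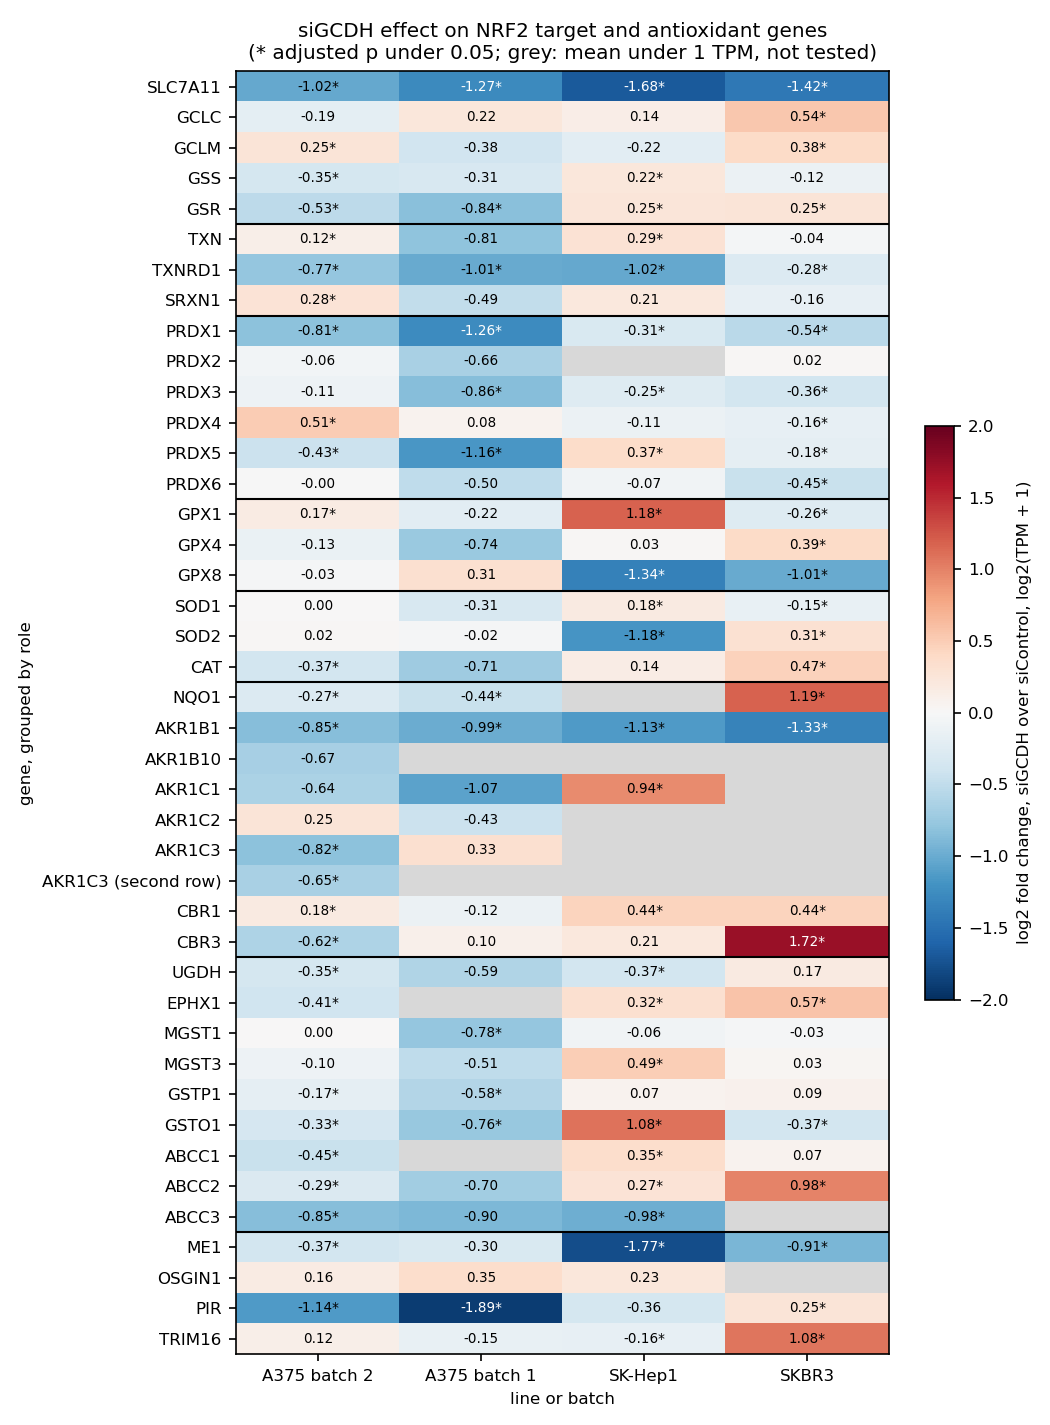
Log2 fold change of siGCDH over siControl on the log2(TPM + 1) scale for each of 42 rows (down the page, grouped by role) in 4 sets of libraries (columns), with a star at adjusted p under 0.05 and grey where the mean was under 1 TPM. SLC7A11, TXNRD1, PRDX1 and AKR1B1 are blue and starred in all 4 columns, while NQO1, CBR3, GSTO1, GPX1, SOD2 and TRIM16 change sign between columns.

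Of the genes for cystine uptake and glutathione synthesis, SLC7A11 fell in all 4 sets, while the enzymes that make and recycle glutathione fell or rose by smaller amounts that differed between lines. SLC7A11 (ENSG00000151012, GRCh38 chromosome 4, 138164097 to 138242349, minus strand) encodes xCT, the transporter that imports cystine in exchange for glutamate. In A375 batch 2 it had 9.09, 6.37 and 7.74 TPM in the siGCDH libraries, against 17.1, 17.3 and 15.3 TPM in the siControl libraries, and in A375 batch 1 2.11, 2.24 and 2.51 TPM in the siGCDH libraries, against 6, 7.11 and 7.78 TPM in the siControl libraries. In SK-Hep1 it had 1.96, 2.04 and 2.15 TPM in the siGCDH libraries, against 8.3, 8.2 and 9.89 TPM in the siControl libraries, and in SKBR3 2.14, 1.82 and 2.77 TPM in the siGCDH libraries, against 7.03, 9.03 and 7 TPM in the siControl libraries. In each set every siGCDH library was below every siControl library. The log2 fold changes were -1.02 (SE 0.13, adjusted p = 0.00108) in A375 batch 2, -1.27 (SE 0.25, adjusted p = 0.0254) in batch 1, -1.68 (SE 0.13, adjusted p = 2.95e-05) in SK-Hep1 and -1.42 (SE 0.16, adjusted p = 0.000248) in SKBR3. On the log2(TPM + 1) scale these understate the change of so low a transcript, and the batch 1 call was lost when any 1 of its 6 libraries was left out.

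GSS, glutathione synthetase, fell in A375 batch 2 and rose in SK-Hep1. It had 74.6, 78.1 and 74.7 TPM in the siGCDH libraries, against 98.1, 96.6 and 96.6 TPM in the siControl libraries of A375 batch 2. In SK-Hep1 the values were 70.1, 64 and 61.9 TPM in the siGCDH libraries, against 56.1, 56.1 and 55.3 TPM in the siControl libraries. The groups did not overlap in either line (log2 fold change -0.35, SE 0.04, limma adjusted p = 0.000994 in A375 batch 2, and log2 fold change 0.22, SE 0.06, limma adjusted p = 0.0166 in SK-Hep1, a call lost under median scaling). GSR, which regenerates glutathione, likewise averaged 22.9 ± 1.03 TPM with siGCDH and 33.5 ± 2.58 TPM with siControl in A375 batch 2 (SD, n = 3 each, log2 fold change -0.53, SE 0.08, limma adjusted p = 0.00202). It was called higher by 0.25 in SK-Hep1 and 0.25 in SKBR3. Both rises of GSR were lost under median scaling, in SK-Hep1 if siControl replicate 1 or 3 or siGCDH replicate 3 was left out, and in SKBR3 if siControl replicate 2 or 3 or siGCDH replicate 1 or 3 was left out. GCLC and GCLM, the catalytic and modifier subunits of glutamate-cysteine ligase, are standard NRF2 targets. GCLC was called in SKBR3, where it averaged 50 ± 8.02 TPM with siGCDH and 34.3 ± 7.04 TPM with siControl (SD, n = 3 each, log2 fold change 0.54, SE 0.17, limma adjusted p = 0.0243), and in no other set. GCLM was higher in A375 batch 2 by 0.25 and in SKBR3 by 0.38, and it was not called in batch 1 (-0.38) or SK-Hep1 (-0.22). The SKBR3 calls of GCLC and GCLM were lost under median scaling. That of GCLC was lost also without siControl replicate 2 or siGCDH replicate 1 or 3, and that of GCLM without replicate 3 of either group. The A375 batch 2 call of GCLM was lost without any library but siGCDH replicate 2.

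In the thioredoxin system TXNRD1 fell in all 4 sets. Thioredoxin itself and SRXN1 rose by small amounts where they were called and were lower without a call in A375 batch 1. SRXN1 was also lower without a call in SKBR3. TXNRD1 (ENSG00000198431, GRCh38 chromosome 12, 104215779 to 104350305, plus strand) encodes the cytosolic thioredoxin reductase, which passes electrons from NADPH to thioredoxin. In A375 batch 2 it had 211, 179.8 and 195 TPM in the siGCDH libraries, against 336, 339 and 324 TPM in the siControl libraries, and in SK-Hep1 315, 355 and 359 TPM in the siGCDH libraries, against 735, 676 and 677 TPM in the siControl libraries. In SKBR3 it had 92.5, 92.6 and 94.7 TPM in the siGCDH libraries, against 112, 111 and 117 TPM in the siControl libraries, and in A375 batch 1 63.5, 81.8 and 66.4 TPM in the siGCDH libraries, against 170.1, 99.2 and 169.8 TPM in the siControl libraries. No siGCDH library reached the lowest siControl library of its set. The log2 fold change was -0.77 (SE 0.06, adjusted p = 0.000113) in A375 batch 2 and -1.02 (SE 0.06, adjusted p = 9.47e-06) in SK-Hep1. It was smaller in SKBR3, at -0.28 (SE 0.04, adjusted p = 0.000929), and -1.01 (adjusted p = 0.0389) in batch 1, a call lost under median scaling and without any library but siControl replicate 2.

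TXN, the thioredoxin that TXNRD1 reduces, had 525, 499 and 537 TPM in the siGCDH libraries, against 436, 414 and 425 TPM in the siControl libraries of SK-Hep1 (log2 fold change 0.29, SE 0.04, limma adjusted p = 0.000707). Its A375 batch 2 values were 780.2, 792 and 739 TPM in the siGCDH libraries, against 716, 703 and 712 TPM in the siControl libraries, a log2 fold change of 0.12 (adjusted p = 0.0314) that was lost under median scaling and without any library but siGCDH replicate 3. In both of these sets all siGCDH libraries lay above all siControl libraries, and in SKBR3 the groups overlapped (-0.04, adjusted p = 0.378). In A375 batch 1 the order was the reverse, with 434, 258 and 489 TPM in the siGCDH libraries, against 660.2, 712 and 632 TPM in the siControl libraries (-0.81, adjusted p = 0.0644). SRXN1, sulfiredoxin, which repairs overoxidized peroxiredoxins, was called in 1 set. It averaged 80.5 ± 3.02 TPM with siGCDH and 66.2 ± 0.661 TPM with siControl in A375 batch 2 (SD, n = 3 each, log2 fold change 0.28, SE 0.05, limma adjusted p = 0.00436). Its A375 batch 1 values were 21.2, 17.3 and 28.2 TPM in the siGCDH libraries, against 32.9, 30.4 and 29.9 TPM in the siControl libraries, all lower with siGCDH (-0.49, adjusted p = 0.191). In SKBR3 SRXN1 had 23.2, 24.8 and 24.5 TPM in the siGCDH libraries, against 28.5, 27.4 and 25.4 TPM in the siControl libraries, again all lower. Under median scaling both SRXN1 and TXN were called lower in SKBR3.

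Among the peroxiredoxins PRDX1 fell in all 4 sets and the other 5 peroxiredoxins, thiol enzymes that break down peroxides, moved unevenly. PRDX1 (ENSG00000117450, GRCh38 chromosome 1, 45511036 to 45523047, minus strand), the abundant cytosolic member, had 682, 647 and 662 TPM in the siGCDH libraries, against 1172, 1137 and 1191 TPM in the siControl libraries of A375 batch 2. The A375 batch 1 values were 553, 508 and 536 TPM in the siGCDH libraries, against 1212, 1308 and 1298 TPM in the siControl libraries. In SK-Hep1 it had 465, 472 and 444 TPM in the siGCDH libraries, against 595, 568 and 552 TPM in the siControl libraries, and in SKBR3 619.8, 643 and 599 TPM in the siGCDH libraries, against 902, 910.0 and 896 TPM in the siControl libraries. The groups were apart in each set, and the 2 A375 batches showed the largest falls. The log2 fold change was -0.81 (SE 0.03, adjusted p = 5.9e-06) in A375 batch 2, -1.26 (SE 0.07, adjusted p = 0.000523) in batch 1, -0.31 (SE 0.04, adjusted p = 0.000536) in SK-Hep1 and -0.54 (SE 0.03, adjusted p = 1.52e-05) in SKBR3.

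PRDX6, which also has phospholipase activity, was called in SKBR3, with 306, 301 and 299.7 TPM in the siGCDH libraries, against 409, 421 and 412 TPM in the siControl libraries (log2 fold change -0.45, SE 0.03, limma adjusted p = 2.25e-05). Its libraries overlapped in A375 batch 2, at 489.6, 506 and 502 TPM with siGCDH and 501, 498 and 502 TPM with siControl, and the difference between SKBR3 and the other full-length sets is tested below. In A375 batch 1 PRDX6 was lower without overlap or a call, at 110 ± 14.5 TPM with siGCDH and 156 ± 9.49 TPM with siControl. PRDX4, the peroxiredoxin of the endoplasmic reticulum, rose in A375 batch 2, where it averaged 194 ± 16 TPM with siGCDH and 136 ± 5.4 TPM with siControl (SD, n = 3 each, log2 fold change 0.51, SE 0.06, limma adjusted p = 0.00108). In SKBR3 it was called lower by a small amount (-0.16, adjusted p = 0.0353), a call lost under quantile normalization and if siControl replicate 1 or 2 or siGCDH replicate 1 or 3 was left out. The mitochondrial PRDX3 fell in batch 1 (-0.86), SK-Hep1 (-0.25) and SKBR3 (-0.36), and had -0.11 in A375 batch 2 without a call. Its batch 1 call was lost under median scaling and without any library but siGCDH replicate 3. PRDX5, found in mitochondria, peroxisomes and cytosol, fell in A375 batch 2 (-0.43), batch 1 (-1.16) and SKBR3 (-0.18). It rose in SK-Hep1, where it averaged 420.2 ± 27.6 TPM with siGCDH and 324 ± 10.4 TPM with siControl (SD, n = 3 each, log2 fold change 0.37, SE 0.05, limma adjusted p = 0.000751). The SKBR3 call of PRDX5 was lost under quantile normalization and if siControl replicate 1 or 3 or siGCDH replicate 2 was left out. PRDX2 was called in no set. In SK-Hep1 it was near 0, at 0.23, 0.26 and 0.34 TPM with siGCDH and 0, 0.4 and 0.38 TPM with siControl, while SKBR3 held 396 ± 4.08 TPM with siGCDH and 391 ± 1.52 TPM with siControl.

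**Figure D3:**
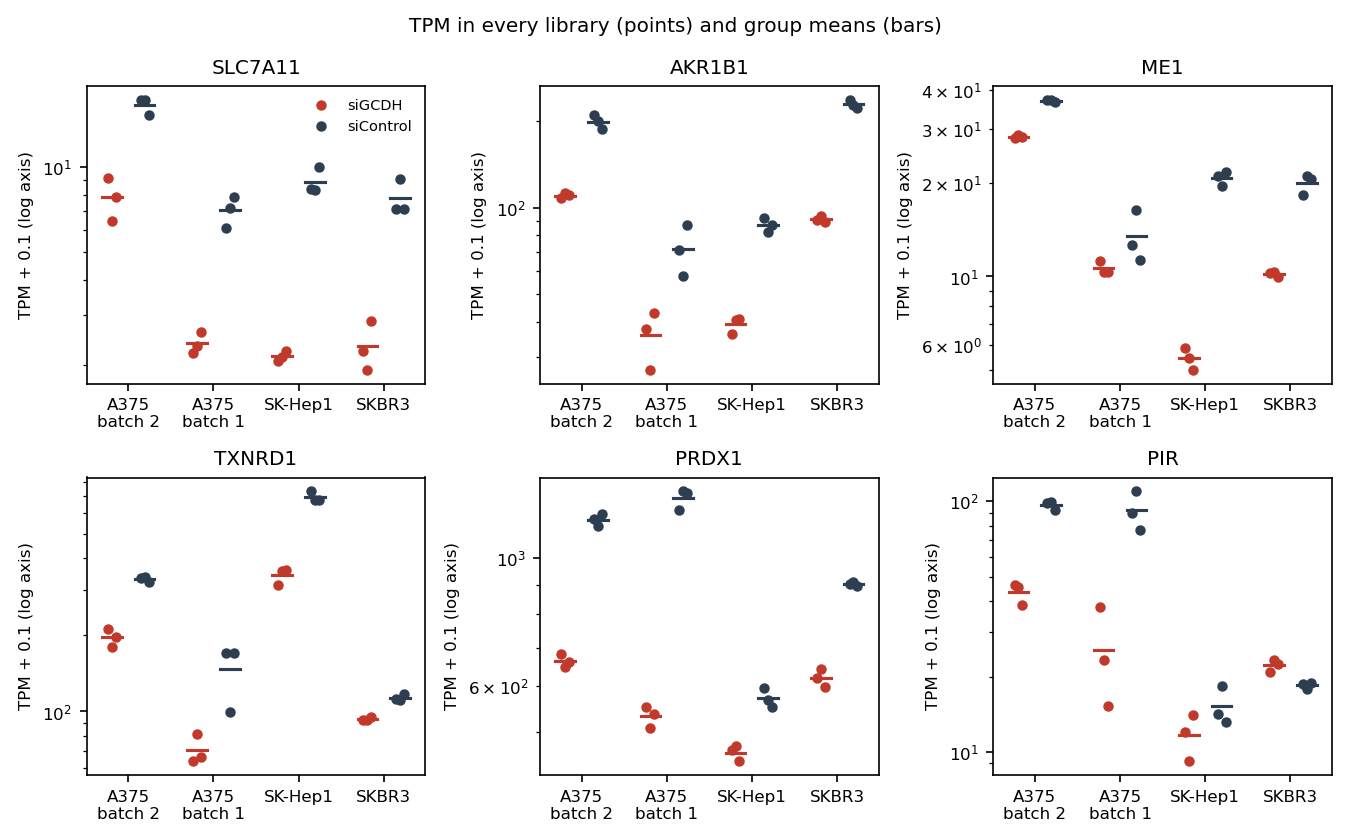
TPM plus 0.1 on a log axis for SLC7A11, AKR1B1, ME1, TXNRD1, PRDX1 and PIR in every library (points) with group means (bars), siGCDH in red left of siControl in dark blue for each line and batch. In the first 5 panels all red points lie below all dark blue points in every set, and PIR shows this in the A375 batches but the reverse order in SKBR3 (20.8 to 23.2 TPM against 17.7 to 18.8 TPM).

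Of the glutathione peroxidases GPX1 rose in SK-Hep1 and GPX8 fell in SK-Hep1 and SKBR3, with small or no change in A375 batch 2. GPX1, the cytosolic selenoenzyme that reduces hydrogen peroxide, had 422, 385 and 384 TPM in the siGCDH libraries, against 167, 181 and 176 TPM in the siControl libraries of SK-Hep1. It had 399, 424 and 408 TPM in the siGCDH libraries, against 375.1, 355 and 367 TPM in the siControl libraries of A375 batch 2. In SKBR3 the values were 186, 176 and 181 TPM in the siGCDH libraries, against 231, 215 and 206 TPM in the siControl libraries. All siGCDH libraries lay above the siControl libraries in SK-Hep1 and A375 batch 2, and below them in SKBR3. Log2 fold changes were 1.18 (SE 0.05, adjusted p = 2.77e-06) in SK-Hep1, 0.17 (adjusted p = 0.0126, lost without siControl replicate 2) in A375 batch 2 and -0.26 (adjusted p = 0.00322) in SKBR3. GPX8, a membrane protein of the endoplasmic reticulum, had 20.9, 28.2 and 27.5 TPM in the siGCDH libraries, against 61.9, 64.6 and 71.1 TPM in the siControl libraries of SK-Hep1. In SKBR3 the values were 23.7, 22.7 and 24 TPM in the siGCDH libraries, against 48.1, 46.1 and 50.5 TPM in the siControl libraries. The groups stood well apart in both (log2 fold change -1.34, SE 0.12, limma adjusted p = 5.78e-05 in SK-Hep1 and log2 fold change -1.01, SE 0.06, limma adjusted p = 1.5e-05 in SKBR3). In A375 batch 2 they overlapped at 48.7 ± 3.24 TPM with siGCDH and 49.7 ± 3.75 TPM with siControl. GPX4, which reduces lipid hydroperoxides and protects against ferroptosis, was called in SKBR3, at 920.4 ± 27.8 TPM with siGCDH and 703 ± 25.6 TPM with siControl (SD, n = 3 each, log2 fold change 0.39, SE 0.04, limma adjusted p = 0.000109). It had -0.13 in A375 batch 2 and 0.03 in SK-Hep1 without a call. In A375 batch 1 GPX4 was lower without overlap or a call, at 39.1 ± 8.42 TPM with siGCDH and 65.0 ± 6.34 TPM with siControl.

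SOD2, the manganese enzyme of mitochondria, fell in SK-Hep1 and rose in SKBR3. It had 72.9, 75.8 and 73.6 TPM in the siGCDH libraries, against 173, 178 and 158 TPM in the siControl libraries of SK-Hep1. In SKBR3 the values were 121, 132 and 132 TPM in the siGCDH libraries, against 103, 99.4 and 107 TPM in the siControl libraries. The groups were apart in opposite order in these lines, and in A375 batch 2 they overlapped at 45.5 ± 1 TPM with siGCDH and 45.1 ± 5.65 TPM with siControl (SD, n = 3 each). As log2 fold changes these were -1.18 (SE 0.06, adjusted p = 3.95e-06) in SK-Hep1 and 0.31 (SE 0.05, adjusted p = 0.00173) in SKBR3, where the call was lost under median scaling. CAT, the peroxisomal catalase, had 35.9, 39.8 and 37 TPM in the siGCDH libraries, against 25.9, 28.6 and 26.3 TPM in the siControl libraries of SKBR3. The A375 batch 2 libraries had 51.5, 48.4 and 49.8 TPM in the siGCDH libraries, against 67, 63 and 64.7 TPM in the siControl libraries. The siGCDH libraries were all higher in SKBR3 (0.47, adjusted p = 0.000848) and all lower in A375 batch 2 (-0.37, adjusted p = 0.00174). SOD1, the copper and zinc enzyme, moved by less than 0.2 in the full-length sets, with calls of 0.18 in SK-Hep1, lost under median scaling, and -0.15 in SKBR3, lost under quantile normalization.

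Among the quinone and carbonyl reductases AKR1B1 fell in all 4 sets, while NQO1 and CBR3 fell in A375 batch 2 and rose in SKBR3. AKR1B1 (ENSG00000085662, GRCh38 chromosome 7, 134442350 to 134459284, minus strand), aldose reductase, which uses NADPH to reduce glucose and aldehydes, had 108, 112 and 110.2 TPM in the siGCDH libraries, against 210.1, 200.1 and 188 TPM in the siControl libraries of A375 batch 2. In A375 batch 1 it had 37.7, 27 and 42.6 TPM in the siGCDH libraries, against 70.9, 57.4 and 86.7 TPM in the siControl libraries. In SK-Hep1 it had 36.1, 40.5 and 40.8 TPM in the siGCDH libraries, against 91.8, 82 and 86.7 TPM in the siControl libraries, and in SKBR3 90.5, 93.1 and 88.9 TPM in the siGCDH libraries, against 238, 228 and 223 TPM in the siControl libraries. No library of a siGCDH group overlapped its siControl group. Its log2 fold change was -0.85 (SE 0.05, adjusted p = 3.55e-05) in A375 batch 2, -1.13 (SE 0.07, adjusted p = 1.22e-05) in SK-Hep1 and -1.33 (SE 0.04, adjusted p = 1.3e-06) in SKBR3. In batch 1 it was -0.99 (adjusted p = 0.0389), lost without any 1 of the 6 libraries and under median scaling.

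NQO1 (ENSG00000181019, GRCh38 chromosome 16, 69706996 to 69726951, minus strand), the quinone reductase most often used to read NRF2 activity, had 1023, 1075 and 1035 TPM in the siGCDH libraries, against 1286, 1236 and 1246 TPM in the siControl libraries of A375 batch 2. Values in A375 batch 1 were 304, 321 and 309 TPM in the siGCDH libraries, against 416, 414 and 442 TPM in the siControl libraries. In SKBR3 it had 15.5, 16.4 and 14.7 TPM in the siGCDH libraries, against 4.34, 7.16 and 7.81 TPM in the siControl libraries. In SK-Hep1 it was at 0, 0 and 0.05 TPM with siGCDH and 0.6, 0.15 and 0 TPM with siControl, too low to test. The siGCDH libraries were all lower in both A375 batches and all higher in SKBR3, whose level stayed far under that of A375. NQO1 changed by a log2 fold change of -0.27 (SE 0.03, adjusted p = 0.000608) in A375 batch 2, -0.44 (adjusted p = 0.0199, lost under median scaling and if siControl replicate 2 or 3 or siGCDH replicate 1 or 3 was left out) in batch 1 and 1.19 (SE 0.19, adjusted p = 0.00112) in SKBR3. CBR3, a carbonyl reductase, had 11.9, 12.7 and 11.1 TPM in the siGCDH libraries, against 3.17, 2.69 and 2.86 TPM in the siControl libraries of SKBR3. In A375 batch 2 the values were 8.81, 10.3 and 8.79 TPM in the siGCDH libraries, against 14.4, 15.1 and 15 TPM in the siControl libraries. It was the member with the largest rise in SKBR3 (log2 fold change 1.72, SE 0.11, limma adjusted p = 1.79e-05) and fell in A375 batch 2 (log2 fold change -0.62, SE 0.09, limma adjusted p = 0.0023). Its relative CBR1 was called higher in 3 sets, by 0.18 in A375 batch 2, 0.44 in SK-Hep1 and 0.44 in SKBR3. The AKR1C genes and AKR1B10, reductases of steroids and lipid aldehydes, are near-identical copies among which reads are hard to divide, so their values are uncertain. AKR1C3 fell in A375 batch 2 on both its rows (-0.82 and -0.65), the first call lost without any library but siGCDH replicate 1 and the second without siControl replicate 1. AKR1C1 rose in SK-Hep1 to 4.18 ± 0.623 TPM with siGCDH, against 1.71 ± 0.492 TPM with siControl, and AKR1C2 and AKR1B10 were called in no set.

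Of 9 genes of conjugation, hydrolysis and export, 7 were lower and 0 higher in A375 batch 2, against 15.7% and 17.9% of all tested genes. In SK-Hep1 5 of 9 were higher and 2 lower, the count of lower ones being near the share of all tested genes (37.3% higher and 18.2% lower), and under median scaling the rises of ABCC2 and EPHX1 in SK-Hep1 were not called. GSTO1, an omega-class glutathione transferase, had 355, 338 and 351 TPM in the siGCDH libraries, against 171, 167 and 154 TPM in the siControl libraries of SK-Hep1. It had 170.5, 185 and 184 TPM in the siGCDH libraries, against 227, 234 and 219 TPM in the siControl libraries of A375 batch 2. In SKBR3 the values were 116, 122 and 117 TPM in the siGCDH libraries, against 164, 152 and 145 TPM in the siControl libraries. All siGCDH libraries were above the siControl libraries in SK-Hep1 and below them in the other lines. The log2 fold change was 1.08 (SE 0.05, adjusted p = 3.04e-06) in SK-Hep1, -0.33 (adjusted p = 0.00178) in A375 batch 2, -0.76 (adjusted p = 0.0396, lost without any 1 of the 6 libraries) in batch 1 and -0.37 (adjusted p = 0.000734) in SKBR3. MGST3, a microsomal glutathione transferase, was called in SK-Hep1, with 234, 242 and 235 TPM in the siGCDH libraries, against 169, 173 and 163 TPM in the siControl libraries (log2 fold change 0.49, SE 0.04, limma adjusted p = 5.43e-05). Its siGCDH libraries there were all higher, and in SKBR3 the groups overlapped (0.03), with a value of -0.205 under median scaling. In A375 batch 1 MGST3 was lower without overlap or a call, at 58.2 ± 2.46 TPM with siGCDH and 83.4 ± 8.51 TPM with siControl.

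Among the exporters of conjugates, ABCC3 fell in A375 batch 2 (log2 fold change -0.85, SE 0.19, limma adjusted p = 0.0134) and SK-Hep1 (log2 fold change -0.98, SE 0.19, limma adjusted p = 0.00341), and stayed at or under 0.25 TPM in SKBR3. ABCC1 averaged 10.9 ± 0.475 TPM with siGCDH and 15.2 ± 0.914 TPM with siControl in A375 batch 2 (-0.45, adjusted p = 0.00611) and 16.3 ± 0.655 TPM with siGCDH and 12.6 ± 0.607 TPM with siControl in SK-Hep1 (0.35, adjusted p = 0.00731; SD, n = 3 each). ABCC2 was lower in A375 batch 2 (-0.29) and higher in SK-Hep1 (0.27) and SKBR3 (0.98), where it averaged 2.1 ± 0.474 TPM with siGCDH and 0.567 ± 0.227 TPM with siControl. With siControl it had 0.5, 0.82 and 0.38 TPM in SKBR3. It thus entered that fit only through its siGCDH libraries, and its SKBR3 call is no support for a rise. The A375 call of ABCC2 was lost without any library but siGCDH replicate 3, its SK-Hep1 call without replicate 2 or 3 of either group, and its SKBR3 call under quantile normalization. EPHX1, the microsomal epoxide hydrolase, was lower in A375 batch 2 (-0.41) and higher in SK-Hep1 (0.32, lost without any library but siControl replicate 1) and SKBR3 (0.57). UGDH, which makes UDP-glucuronate, was lower in A375 batch 2 (-0.35, lost if siControl replicate 2 or 3 or siGCDH replicate 1 or 3 was left out) and SK-Hep1 (-0.37). GSTP1, the pi-class glutathione transferase, was lower in A375 batch 2 (-0.17) and in batch 1 (-0.58), with the batch 1 call lost under median scaling and without siControl replicate 2 or 3. MGST1 was called in batch 1 (-0.78), a call lost under median scaling and without any library but siGCDH replicate 3.

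Of the remaining genes, ME1 fell in the 3 full-length sets and PIR in both A375 batches. ME1 (ENSG00000065833, GRCh38 chromosome 6, 83210389 to 83431071, minus strand), the cytosolic malic enzyme, which makes NADPH, had 5.76, 5.36 and 4.89 TPM in the siGCDH libraries, against 20.9, 19.4 and 21.6 TPM in the siControl libraries of SK-Hep1. It had 10.2, 10.2 and 9.87 TPM in the siGCDH libraries, against 18.2, 20.9 and 20.6 TPM in the siControl libraries of SKBR3. In A375 batch 2 the values were 28, 28.6 and 28 TPM in the siGCDH libraries, against 37.1, 36.9 and 36.4 TPM in the siControl libraries. The groups were apart in each. The log2 fold change was -1.77 (SE 0.09, adjusted p = 5.64e-06) in SK-Hep1, -0.91 (SE 0.08, adjusted p = 8.32e-05) in SKBR3 and -0.37 (SE 0.06, adjusted p = 0.00212) in A375 batch 2, and -0.30 (adjusted p = 0.426) in batch 1.

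PIR (ENSG00000087842, GRCh38 chromosome X, 15384799 to 15493564, minus strand), the iron-binding protein pirin, had 46.1, 45.5 and 38.5 TPM in the siGCDH libraries, against 98, 99 and 92.5 TPM in the siControl libraries of A375 batch 2. In A375 batch 1 it had 37.7, 23.3 and 15.2 TPM in the siGCDH libraries, against 89.6, 109.9 and 76.7 TPM in the siControl libraries. In SK-Hep1 it had 11.9, 9.06 and 13.9 TPM in the siGCDH libraries, against 14, 18.2 and 13.1 TPM in the siControl libraries, and in SKBR3 20.8, 23.2 and 22.3 TPM in the siGCDH libraries, against 18.6, 17.7 and 18.8 TPM in the siControl libraries. PIR was lower in every A375 siGCDH library, overlapped in SK-Hep1 and was slightly higher in every SKBR3 siGCDH library. Its log2 fold change was -1.14 (SE 0.08, adjusted p = 6.3e-05) in A375 batch 2 and -1.89 (SE 0.31, adjusted p = 0.0147, lost without siControl replicate 2) in batch 1. In SKBR3 it was 0.25 (adjusted p = 0.0155), a rise lost under median scaling and without siGCDH replicate 2, with a value of -0.00511 under quantile normalization. TRIM16, a ubiquitin ligase that interacts with the NRF2 system, averaged 38.2 ± 3.08 TPM with siGCDH and 17.6 ± 2.32 TPM with siControl in SKBR3 (SD, n = 3 each, log2 fold change 1.08, SE 0.11, limma adjusted p = 0.000124). Its call of -0.16 in SK-Hep1 was lost without any library but siGCDH replicate 3. TRIM16 has a near-identical copy, so its value is uncertain. OSGIN1, a stress-induced growth inhibitor, was called in no set.

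**Figure D4:**
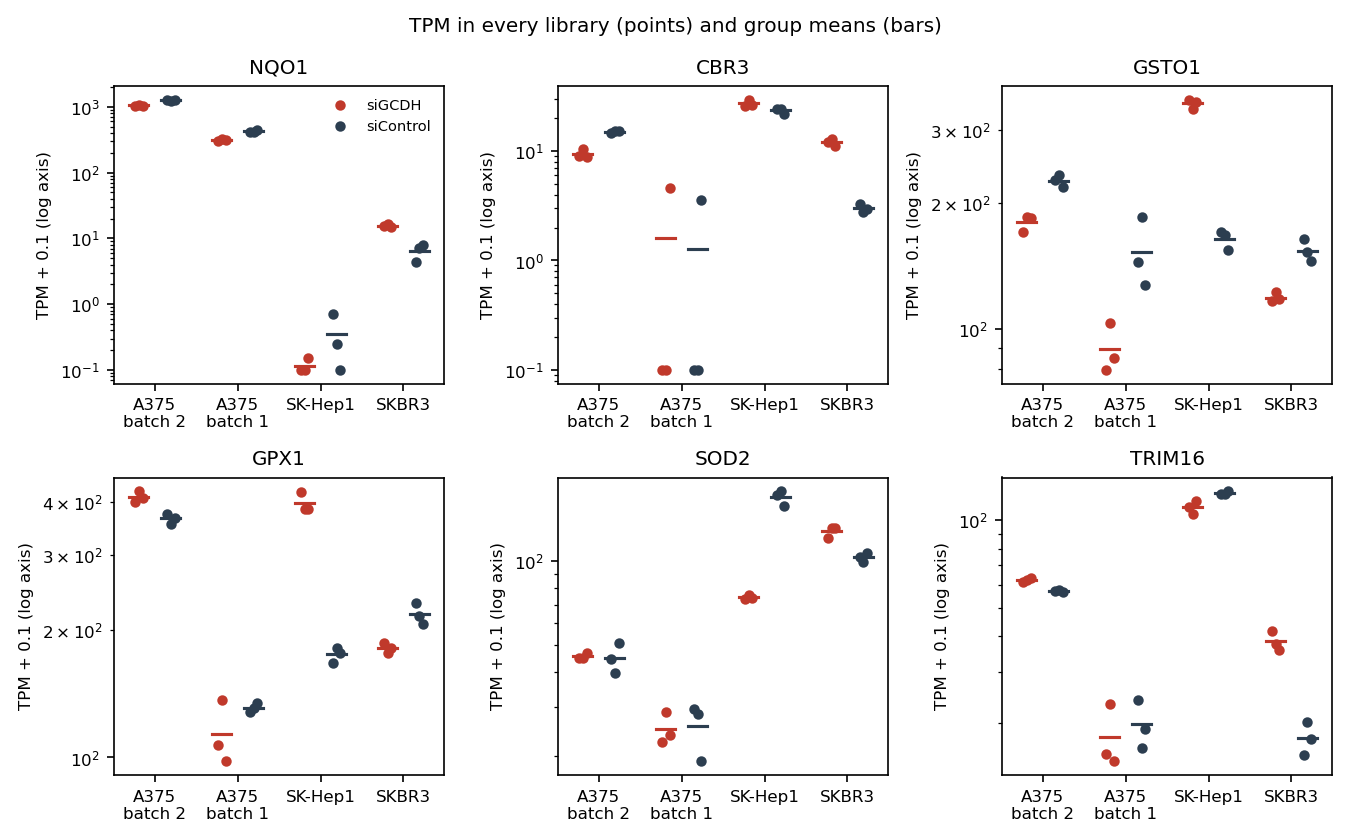
TPM plus 0.1 on a log axis for NQO1, CBR3, GSTO1, GPX1, SOD2 and TRIM16 in every library (points) with group means (bars), siGCDH in red left of siControl in dark blue for each line and batch. NQO1 and CBR3 have red below dark blue in A375 batch 2 and above it in SKBR3, and GSTO1 and GPX1 have red well above dark blue in SK-Hep1, where SOD2 shows the reverse.

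Of 33 members tested in the 3 full-length sets, 5 were called lower in all 3 (15.2%), namely AKR1B1, ME1, PRDX1, SLC7A11 and TXNRD1, against 318 of 12258 genes tested there (2.59%). These 5 encode aldose reductase, malic enzyme, a peroxiredoxin, the cystine importer and thioredoxin reductase. The same 5 were called when each full-length library was left out in turn, whereas the joint fit of 24 libraries left 4, without TXNRD1, and a filter at 5 TPM left 4, without SLC7A11. Of 31 members tested in all 4 sets, 4 were called lower in all (12.9%, ME1 being the one that dropped out), against 0.985% of genes, and because most batch 1 calls were fragile this count was 1 to 4 over its alternatives. One member of 33, CBR1, was called higher in all 3 full-length sets, against 5.97% of genes. That count was 0 if siControl replicate 2 or 3 or siGCDH replicate 1 or 2 was left out of A375 batch 2.

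Whether siGCDH acted unequally on these genes in the lines was tested as a difference of effects, A375 batch 2 minus SK-Hep1, A375 batch 2 minus SKBR3, and SK-Hep1 minus SKBR3, in 12 full-length libraries each. The first 2 of these share the A375 libraries, and the last shares libraries with both. The effect was unequal between A375 batch 2 and SK-Hep1 for 28 of 36 members, against 50.1% of all genes tested, higher in A375 for 9 and lower for 19, a lean that all genes shared (18.2% higher and 31.8% lower). After median scaling 11 members were higher and 14 lower, against 22.8% and 25.3% of all genes, and the members' median difference was -0.0618 in place of -0.177. Between A375 batch 2 and SKBR3 it was unequal for 29 of 35, against 53% of all genes, higher in A375 for 10 and lower for 19, and all genes leaned the same way (16.3% higher and 36.8% lower). Median scaling gave 13 higher and 11 lower, against 25.6% and 23.6% of all genes, and a members' median of -0.0248 in place of -0.254. Between SK-Hep1 and SKBR3 it was unequal for 22 of 33, against 37.1% of all genes, 11 in each direction (15.6% of all genes higher and 21.5% lower), and after median scaling 13 higher and 8 lower, against 22.9% and 16% of all genes. The share of members with unequal effects was above that of all genes in each pair of lines. Most members stood far above a mean of 1 TPM, from which the background was taken. The part of expression level in this and the other shares of called members was not tested.

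Among the larger differences were those of CBR3, NQO1 and PIR, all lower in A375. For CBR3 the effect in A375 minus that in SKBR3 was -2.34 (SE 0.13, adjusted p = 8.84e-08). For NQO1 it was -1.45 (SE 0.20, adjusted p = 7.64e-05) and for PIR -1.39 (SE 0.10, adjusted p = 6.88e-07). SK-Hep1 differed from A375 in other members. For GSTO1 the difference between A375 and SK-Hep1 was -1.41 (SE 0.07, adjusted p = 2.26e-08), and for GPX1 -1.01 (SE 0.07, adjusted p = 2.02e-07). For ME1 it was 1.40 (SE 0.10, adjusted p = 3.86e-07), the fall in SK-Hep1 being deeper than in A375. SOD2 differed by -1.49 (SE 0.08, adjusted p = 2.51e-07) and GPX1 by 1.44 (SE 0.08, adjusted p = 2.51e-07) between SK-Hep1 and SKBR3. For PRDX6 the effect in A375 minus that in SKBR3 was 0.45 (SE 0.04, adjusted p = 1.6e-06), and that in SK-Hep1 minus SKBR3 0.38 (SE 0.05, adjusted p = 8.57e-05). SLC7A11, lower in all lines, fell less in A375 than in SK-Hep1 (0.66 (SE 0.18, adjusted p = 0.00782)), and its difference from SKBR3 did not pass (0.41 (SE 0.21, adjusted p = 0.125), 95% interval -0.05 to 0.87). PRDX1 fell more in A375 than in SK-Hep1 (-0.50 (SE 0.05, adjusted p = 9.12e-06)) or SKBR3 (-0.27 (SE 0.04, adjusted p = 0.000347)).

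Some members were called in opposite directions in different lines. Between A375 batch 2 and SK-Hep1 these were 7 of 36 (ABCC1, ABCC2, EPHX1, GSR, GSS, GSTO1 and PRDX5), all lower in A375 and higher in SK-Hep1, against 10% of all genes tested in both. Median scaling left 4, losing ABCC2, EPHX1, GSR and GSS and adding PRDX4, which was higher in A375. Between A375 batch 2 and SKBR3 there were 9 of 35, of which GPX1 and PRDX4 were higher in A375 and ABCC2, CAT, CBR3, EPHX1, GSR, NQO1 and PIR lower, against 9.89% of all genes. Median scaling gave 8, losing GSR and PIR and adding SRXN1. ABCC2 reached the filter in SKBR3 only through its siGCDH libraries. Between SK-Hep1 and SKBR3 there were 6 of 33, of which GPX1, GSTO1, PRDX5 and SOD1 were higher in SK-Hep1 and SOD2 and TRIM16 lower, against 4.17% of all genes. Median scaling gave 6, losing SOD1 and SOD2 and adding MGST3 and TXN. The shares of all genes called in opposite directions are for unscaled values, so these median-scaled counts have no background beside them. The 2 A375 batches, which differ in kit, had unequal effects for 8 of 38 members, all lower in batch 1, against 6.82% of all genes in either direction and 6.33% lower. That count was 0 after median scaling, after quantile normalization and after removal of the chromosome 21 rows. It was 2 to 4 without any 1 of the A375 batch 2 libraries, and 5 without siControl replicate 2 and 12 without siGCDH replicate 2 of batch 1.

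**Figure D5:**
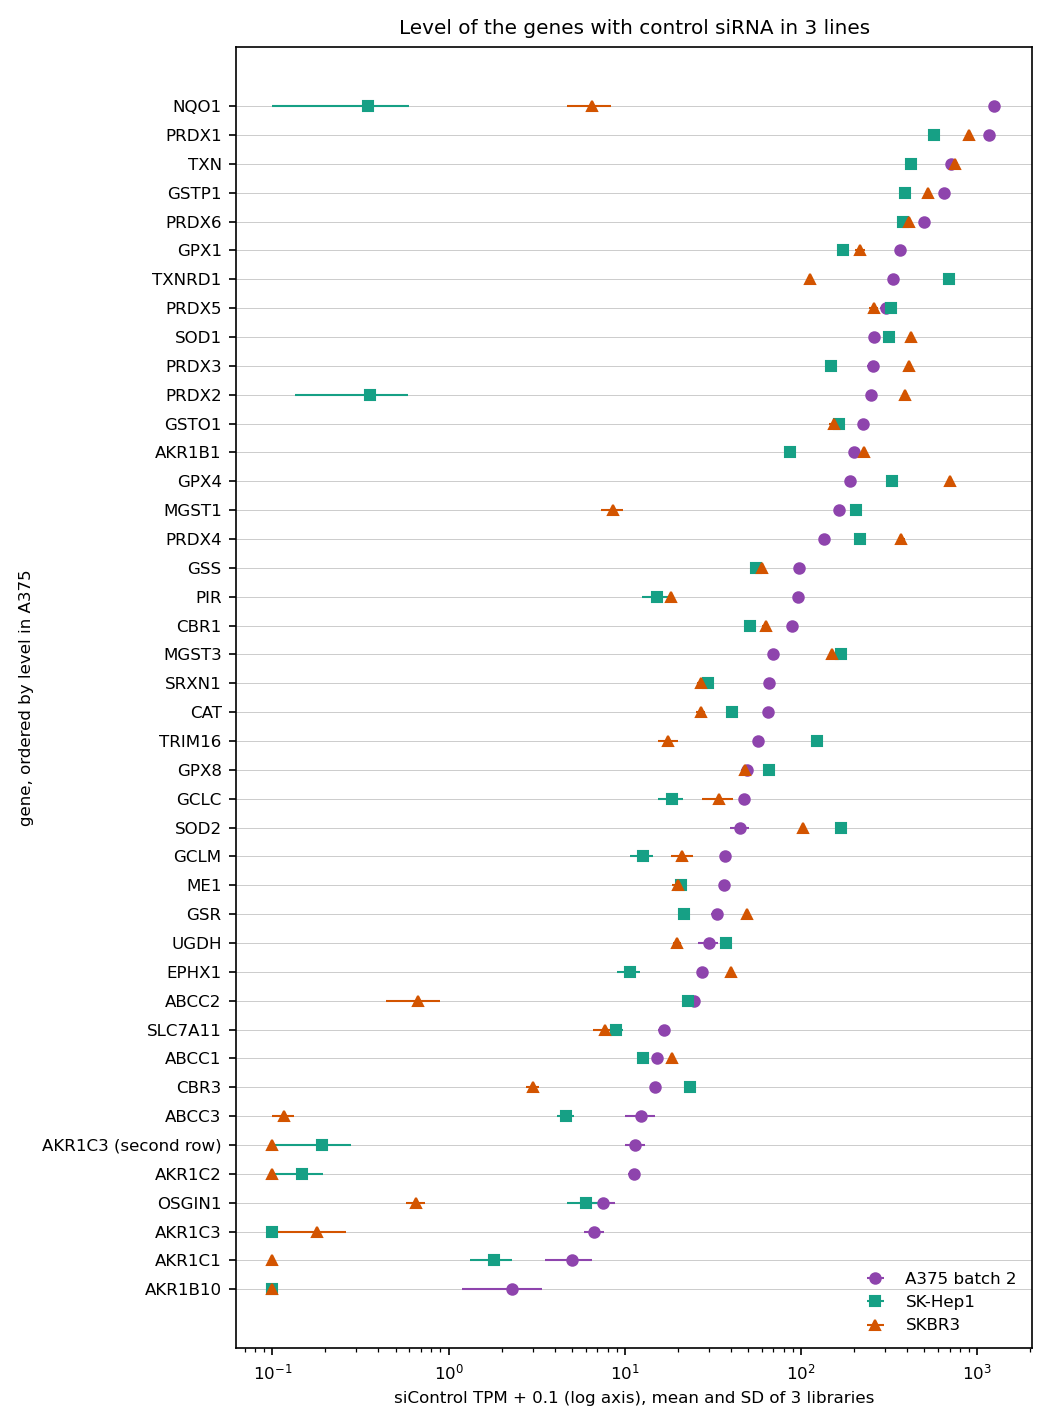
Mean siControl TPM plus 0.1 with SD over 3 libraries (log axis) of each of 42 rows, ordered by the A375 level, in A375 batch 2 (purple circles), SK-Hep1 (green squares) and SKBR3 (orange triangles). NQO1 tops the A375 order at 1256 TPM and is near the bottom in SK-Hep1 at 0.25 TPM, and PRDX2 drops out in SK-Hep1.

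With control siRNA alone, the level of most of these genes differed between the lines, as did that of most genes. A375 minus SK-Hep1 was called for 38 of 41 members, 27 higher and 11 lower in A375, against 73.5% of all genes called (45% higher and 28.6% lower). A375 minus SKBR3 was called for 40, 28 higher and 12 lower in A375, against 74.6% (34.4% higher and 40.2% lower). SK-Hep1 minus SKBR3 was called for 34, 14 higher and 20 lower, against 77.4% (28.5% higher and 48.9% lower). A375 held more of several inducible NRF2 targets than either other line. NQO1 averaged 1256 ± 26.9 TPM in A375, 0.25 ± 0.312 TPM in SK-Hep1 and 6.44 ± 1.84 TPM in SKBR3, A375 being higher by 10.00 than SK-Hep1 and by 7.43 than SKBR3 on the log2 scale. SRXN1 averaged 66.2 ± 0.661, 29.7 ± 2.48 and 27.1 ± 1.57 TPM in A375, SK-Hep1 and SKBR3, and PIR 96.5 ± 3.5, 15.1 ± 2.72 and 18.4 ± 0.537 TPM. SK-Hep1 had the highest TXNRD1, at 696 ± 33.8 TPM, against 113 ± 3.16 TPM in SKBR3, and the highest SOD2, at 169.7 ± 10.9 TPM against 103 ± 3.88 TPM. SKBR3 had the highest GPX4, at 703 ± 25.6 TPM, and little MGST1, at 8.5 ± 1.22 TPM against 205 ± 12.1 TPM in SK-Hep1 (SD, n = 3 each). The AKR1C genes and AKR1B10 were at or near 0 in SKBR3 and, apart from AKR1C1, in SK-Hep1. SLC7A11, ME1 and SRXN1 did not differ beyond the spread between SK-Hep1 and SKBR3 (0.18, 0.05 and 0.13), whereas each was higher in A375.

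The regulators of NRF2 and other targets of it were read from lists outside the 42 genes. NFE2L2 itself rose in A375 batch 2, where it averaged 99.1 ± 4.51 TPM with siGCDH and 77.7 ± 1.58 TPM with siControl (log2 fold change 0.35, limma adjusted p = 0.00194). It also rose in batch 1 (0.63, adjusted p = 0.0388, lost without any library but siGCDH replicate 1) and in SKBR3 (0.28, adjusted p = 0.00637, lost under median scaling), and had 0.09 in SK-Hep1 without a call. Of 10 regulators, 3 were higher and 2 lower in A375 batch 2 (17.9% and 15.7% of all tested genes), and 1 higher and 2 lower in batch 1 (1.18% and 6.73%), where median scaling left 1 and 0. In SK-Hep1 6 were higher and 0 lower (37.3% and 18.2%), and in SKBR3 5 higher and 1 lower, near the 47.3% and 14.7% of all tested genes, where median scaling left 1 and 1. KEAP1, the NRF2 adaptor for breakdown, was 0.19 in A375 batch 2 without a call, and higher in SK-Hep1 (0.30, lost if siControl replicate 2 or 3 or siGCDH replicate 1 or 2 was left out) and SKBR3 (0.57), both lost under median scaling. SQSTM1, the autophagy receptor p62, which sequesters KEAP1 and is itself an NRF2 target, fell in A375 batch 2 (-0.41) and rose in SK-Hep1 (0.29) and SKBR3 (1.39). NFE2L2 was thus higher in A375 batch 2, where 21 of the 42 rows described above were lower.

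Of 12 iron and NADPH targets of NRF2, 9 were lower and 2 higher in A375 batch 2, and 4 lower and 0 higher in batch 1. In both SK-Hep1 and SKBR3 6 were lower and 5 higher, and median scaling gave 7 and 2 in SKBR3. Against the shares of all tested genes given above, the counts of higher ones were near the background in A375 batch 2, SK-Hep1 and SKBR3 (17.9%, 37.3% and 47.3%), and those of lower ones above it (15.7%, 18.2% and 14.7%). TKT, transketolase, averaged 197 ± 6.69 TPM with siGCDH and 916 ± 21.8 TPM with siControl in A375 batch 2 (-2.21, adjusted p = 1.18e-07). The ferritin chains FTH1 and FTL were lower in A375 batch 2 (-0.97 and -0.53) and higher in SK-Hep1 (0.35 and 0.61) and SKBR3 (0.13 and 0.26), where under median scaling FTH1 was called lower (-0.107) and FTL was not called. HMOX1, heme oxygenase, rose in A375 batch 2 to 86.2 ± 2.62 TPM with siGCDH, against 40 ± 1.97 TPM with siControl. It fell in SK-Hep1 to 4.54 ± 1.08 TPM with siGCDH, against 41.4 ± 1.47 TPM with siControl, and also in SKBR3 (-2.17). Among other redox genes, 28 listed, 6 of 27 tested were higher and 6 lower in A375 batch 2, and 1 of 27 higher and 2 lower in batch 1, where median scaling gave 2 and 0. In SK-Hep1 8 of 24 were higher and 7 lower, and in SKBR3 11 of 25 were higher and 9 lower, where median scaling gave 7 and 12. The counts of higher genes in the full-length sets were near the shares of all tested genes (17.9%, 37.3% and 47.3%). Those of lower genes were above them (15.7%, 18.2% and 14.7%), as for the members. In batch 1 the shares of all tested genes were 1.18% higher and 6.73% lower. SESN2, a stress-induced sestrin, rose in A375 batch 2 (1.64), batch 1 (1.22, lost without siControl replicate 3 or siGCDH replicate 2 or 3) and SK-Hep1 (1.76). GSTK1, a mitochondrial and peroxisomal glutathione transferase, fell in all 4 sets (-0.32, -1.21, -0.61 and -0.41 in the order A375 batch 2, batch 1, SK-Hep1 and SKBR3). The batch 1 call of GSTK1 was lost under median scaling and without any siControl library.

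Calls were also counted by the 7-mer in the 3′ UTR. It was named from transcripts lower with siGCDH in these same data. More falls among its holders were thus partly built in, and the counts are description only. With siGCDH, 4 of 7 members with it and 16 of 34 without it were lower in A375 batch 2, against 29% of all tested genes with it and 16.3% of those without. In A375 batch 1 these were 3 of 6 and 9 of 32, against 9.71% and 7.09%. In SK-Hep1, 5 of 7 members with it and 6 of 29 without it were lower, against 20.4% and 20.8% of all genes. In SKBR3 these were 3 of 6 and 10 of 29, against 17.3% and 18.2%. In SK-Hep1 the members with the 7-mer that fell were ABCC3, PRDX1, PRDX3, SLC7A11 and SOD2, and the falls of TXNRD1, AKR1B1, ME1 and GPX8 came without it. The part of the 7-mer in these changes was not tested.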

How the data were processed

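The authors deposited TPM values in a single table with 24 columns, 1 for each library. The submitters' processing notes name RSEM 1.3.1, STAR 2.7.0d, cutadapt 2.3 and the hg38 build, while gene annotation and strandedness of the counting were not given in the sources used here. RSEM divides reads among similar transcripts, so near-identical copies are uncertain. TPM keeps no read totals, so depth is unknown and no counting interval is given, and the 3′ tag kit of A375 batch 1 makes its length-corrected levels unlike the rest.

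Values were taken as log2(TPM + 1), a scale that understates changes of low genes. Separate fits on 6 libraries were made for each line and batch with limma 3.58.1 (R 4.3.3, statmod 1.5.0; eBayes with trend) over genes of a mean of 1 TPM or more, with two-sided p-values adjusted by Benjamini-Hochberg over all of them and calls at an adjusted p under 0.05. Differences between lines were interactions on 12 libraries, and siControl levels were fitted on 9. All adjusted p-values in the text come from limma. Whole libraries of a group correlated by 0.906 or more. Deviations of same-numbered siGCDH and siControl libraries from their group means correlated by -0.0629 to 0.139, and the numbers were not taken as pairs.

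Every listed gene could be named. Values in every library are given for the 2 genes of each role with the smallest adjusted p in any fit at a mean of 5 TPM or more, and for genes the text turns on. The genes and lists were chosen with earlier results of these data known. Chromosome positions and 3′ UTRs came from GENCODE 29 and promoters from RefSeq. Alternatives were pseudocounts of 0.1 and 5, no filter or 5 TPM, quantile normalization, scaling to a common median, removal of chromosome 21 ribosomal rows, a joint fit, a block on the replicate number, eBayes run robust or without its trend, leaving out each library, and leaving out members with the 7-mer or with near-identical copies. The alternatives for the lists outside the 42 genes were added after the data were seen. One result from those lists is not reported here.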

Additional observations from a re-analysis of the deposited data

Results flagged for a closer look

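The siGCDH effect differed between A375 batch 2 and SK-Hep1 for 28 members, by a limma interaction test on 12 libraries (adjusted p from 2.26e-08 to 0.0411). Values are log2 effects in A375 batch 2 minus SK-Hep1, so a positive value means a higher effect in A375. Among glutathione synthesis genes it was 0.662 for SLC7A11, 0.469 for GCLM, -0.575 for GSS and -0.779 for GSR. Among thioredoxin genes it was -0.174 for TXN and 0.253 for TXNRD1. Among peroxiredoxins it was -0.502 for PRDX1, 0.618 for PRDX4 and -0.804 for PRDX5. Among glutathione peroxidases it was -1.01 for GPX1, -0.154 for GPX4 and 1.32 for GPX8. Among dismutases and catalase it was -0.181 for SOD1, 1.2 for SOD2 and -0.515 for CAT. Among carbonyl and quinone reductases it was 0.279 for AKR1B1, -1.57 for AKR1C1, -0.261 for CBR1 and -0.832 for CBR3. Among conjugation and export genes it was -0.723 for EPHX1, -0.587 for MGST3, -0.244 for GSTP1, -1.41 for GSTO1, -0.797 for ABCC1 and -0.554 for ABCC2. Among remaining genes it was 1.4 for ME1, -0.783 for PIR and 0.284 for TRIM16.

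Between A375 batch 2 and SKBR3 the effect differed for 29 members (adjusted p from 8.84e-08 to 0.0428), given as A375 batch 2 minus SKBR3. These values share the A375 libraries with the ones above. Glutathione synthesis genes differed by -0.735 for GCLC, -0.231 for GSS and -0.784 for GSR. Thioredoxin genes differed by 0.159 for TXN, -0.489 for TXNRD1 and 0.434 for SRXN1. Peroxiredoxins differed by -0.273 for PRDX1, 0.253 for PRDX3, 0.67 for PRDX4, -0.254 for PRDX5 and 0.448 for PRDX6. Glutathione peroxidases differed by 0.427 for GPX1, -0.515 for GPX4 and 0.981 for GPX8. Dismutases and catalase differed by 0.149 for SOD1, -0.285 for SOD2 and -0.84 for CAT. Carbonyl and quinone reductases differed by -1.45 for NQO1, 0.478 for AKR1B1, -0.261 for CBR1 and -2.34 for CBR3. Conjugation and export genes differed by -0.526 for UGDH, -0.973 for EPHX1, -0.262 for GSTP1, -0.516 for ABCC1 and -1.27 for ABCC2. The last of these reached the filter in SKBR3 only through its siGCDH libraries. Remaining genes differed by 0.538 for ME1, -1.39 for PIR and -0.954 for TRIM16.

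Between SK-Hep1 and SKBR3 it differed for 22 members (adjusted p from 2.4e-07 to 0.0304), given as SK-Hep1 minus SKBR3. Values for glutathione synthesis genes were -0.596 for GCLM and 0.345 for GSS. Values for thioredoxin genes were 0.333 for TXN, -0.742 for TXNRD1 and 0.362 for SRXN1. Values for peroxiredoxins were 0.229 for PRDX1, 0.55 for PRDX5 and 0.378 for PRDX6. Values for glutathione peroxidases were 1.44 for GPX1 and -0.362 for GPX4. Values for dismutases and catalase were 0.33 for SOD1, -1.49 for SOD2 and -0.325 for CAT. Values for carbonyl and quinone reductases were -1.51 for CBR3. Values for conjugation and export genes were -0.545 for UGDH, 0.457 for MGST3, 1.45 for GSTO1, 0.281 for ABCC1 and -0.716 for ABCC2. The limit given for ABCC2 in SKBR3 holds here too. Values for remaining genes were -0.863 for ME1, -0.611 for PIR and -1.24 for TRIM16. Beside these values stand the facts given earlier for the libraries labelled SKBR3, whose siGCDH libraries held more genes at 1 TPM or more, and the median shifts of all genes in SK-Hep1 and SKBR3. Their part in the differences was not tested.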

How the results depend on the processing

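For the counts and the GCDH changes, 451 recomputed values kept their size or side of the threshold, 61 moved by over 1.5 times and 1 passed the test anew, and for single genes 10646 kept direction and side, 671 lost a call, 144 gained one and 14 turned sign. In A375 batch 2 the 6 higher members became 2 without the mean-variance trend, 3 with the replicate number as a block and 1 in the joint fit of 24 libraries, which left 13 of 21 lower. In A375 batch 1 the 12 lower members became 7 with no filter, 4 after quantile normalization, 4 after median scaling, 3 without the chromosome 21 rows, 2 without trend, 5 with the replicate block and 28 in the joint fit, where the GCDH change of -1.42 was also called (limma adjusted p = 3.22e-04). The joint fit takes a single spread per gene from all 24 libraries. Libraries of a group correlated less in batch 1 (lowest 0.906) than in the full-length sets (lowest 0.968). Joint p-values for batch 1 may therefore be too small, and no share of all genes is beside its joint counts. In SK-Hep1 the 13 higher became 8 after median scaling and 8 in the joint fit. The 11 lower became 6 of 29 with the 7-mer holders left out, because 5 of the 7 holders were lower. That shortens the list and shows no dependence on processing, and 20.8% of all genes without the 7-mer were lower. In SKBR3 the 13 higher became 8 after median scaling. The joint fit left 13 unequal effects of 28 between A375 batch 2 and SK-Hep1, 17 of 29 between A375 batch 2 and SKBR3, and 14 of 22 between SK-Hep1 and SKBR3. The 8 unequal effects between the A375 batches became 4 with no filter, 0 after quantile normalization, 0 after median scaling, 0 without the chromosome 21 rows, 1 without trend, 2 with the replicate block, 14 in the joint fit and 5 with the 7-mer holders left out, where the list was again shorter. The 4 members lower in all 4 sets became 1 with no filter and 1 without the chromosome 21 rows, and 2 after quantile normalization, median scaling, without trend and with the replicate block. The 1 member higher in all 3 full-length sets, CBR1, became 0 without trend, with the replicate block and in the joint fit. The cause of these changes was not tested.

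Those that turned sign were as follows. Quantile normalization gave -0.206 for ABCC1, -0.00511 for PIR and -0.625 for MAFF in SKBR3. Median scaling gave -0.222 for PRDX2, -0.205 for MGST3, -0.153 for GSTP1, -0.166 for SESN2, -0.0284 for GSTM3, -0.10 for IDH1 and -0.107 for FTH1 in SKBR3, and 0.155 for PRDX2 in A375 batch 2 minus SKBR3. For siControl levels, SK-Hep1 minus SKBR3, GSS became 0.0024 after quantile normalization and 0.017 after median scaling, and PRDX6 became 0.00629 after median scaling.

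Leaving out each library in turn gave 2 to 5 higher and 18 to 19 lower members in A375 batch 2, 3 to 6 lower in batch 1, 10 to 14 higher and 10 to 11 lower in SK-Hep1, and 10 to 13 higher and 11 to 12 lower in SKBR3. It gave 24 to 28 unequal effects between A375 batch 2 and SK-Hep1, 25 to 28 between A375 batch 2 and SKBR3, 20 to 23 between SK-Hep1 and SKBR3, and 2 to 12 between the A375 batches. Different siControl levels numbered 38 to 40 for A375 minus SK-Hep1, 38 to 40 for A375 minus SKBR3 and 33 to 34 for SK-Hep1 minus SKBR3. Members lower in all 4 sets numbered 1 to 4, and higher in the 3 full-length sets 0 to 1. The GCDH change ranged from -2.27 to -2.15 in A375 batch 2, -1.85 to -1.11 in batch 1, -1.57 to -1.38 in SK-Hep1 and -1.95 to -1.64 in SKBR3. Calls kept without each library were 19 of 27 in A375 batch 2, 2 of 12 in batch 1, 20 of 24 in SK-Hep1 and 20 of 26 in SKBR3, and under every alternative 13, 1, 14 and 15. The wells share a replicate number and no stated pairing. Deviations of same-numbered libraries from their group means correlated by -0.0629 to 0.139, and several correlated better with another number. The block gave the counts above while the 5 members lower in the full-length sets stayed 5. Those 5 were 4 in the joint fit and 4 with the filter at 5 TPM. TPM keeps no read totals, so how far depth limits low genes is unknown.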
